A study of Mus musculus with 2 samples.

Results

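The aminoacyl-tRNA synthetase genes were taken by name from a table of gene expression in fibroblasts grown in primary culture from mouse embryos (stage E13.5). Of 37 listed genes, 36 had a row of their own among the 25430 gene names of the table, with no repeated name among them. The table gives names in capitals (LARS2, FARSA, FARSB, NARS2 and MARS, for example), and mouse symbols are printed below. The missing one, Aars, was listed only in a row joined with its neighbour Exosc6. The 36 were 18 genes of cytosolic enzymes, 16 genes of mitochondrial enzymes, and Gars and Kars, whose products serve both compartments. The libraries were 1 knockout for Sptbn1, labelled Sptbn1-/-, and 1 wild type, both from embryos of heterozygous (Sptbn1+/-) matings. Sptbn1 encodes beta-2 spectrin, a scaffold of the membrane skeleton. The labels do not say how many embryos went into each library.

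With a single library per genotype there is no replicate check, and the values compare these 2 libraries rather than the genotypes. Levels are FPKM as deposited by the authors, that is, fragments divided by transcript length and scaled to library size. Differences are the log2 ratio of FPKM + 1, knockout over wild type, a scale on which changes of low genes look smaller than they are. Genes counted as measured had a mean of 1 FPKM or more, which held for 11070 genes, 31 of the 36 synthetases among them. The median measured gene lay at -0.05, and the 5th and 95th percentiles were -0.36 and 0.28. Sptbn1 was listed at 36.6 FPKM in knockout cells and 69.6 FPKM in wild-type cells, giving -0.91 on this scale. The library labelled knockout, called knockout cells here, thus kept 52.5% of the wild-type value for the targeted gene. Which part of the gene is deleted is not given in the sources used here, and a value over the whole gene does not check that both copies are. The header of the wild-type column also carries a -/- mark, so each direction rests on reading it by the wild-type title. In rows of low value 1 fragment counted for 1.61 times the FPKM in knockout cells that it had in wild-type cells, so the knockout library was the shallower. Total depths are not stated. On a common FPKM sum the median gene moved to 0.34, so directions below are read against the median gene. Markers of fibroblasts were high in both libraries, with all 10 between 29.7 and 939 FPKM in knockout cells and between 35.3 and 957 FPKM in wild-type cells. Of these 10 markers 9 were below 0, where 63.1% of all measured genes were, and their median was -0.09. The largest differences were those of Dcn (-0.33), S100a4 (-0.30) and Pdgfra (-0.24).

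Aminoacyl-tRNA synthetases join each amino acid to its own tRNA, the step that sets the reading of the genetic code. Animal cells use largely separate nuclear genes for the cytosolic enzymes and for the enzymes that mitochondria import. Class I and class II enzymes have unrelated catalytic folds. In the cytosol a group of them is held in the multisynthetase complex by 3 scaffold proteins. When amino acids run short or the endoplasmic reticulum is stressed, the transcription factor ATF4 raises many of the cytosolic synthetase genes together with genes of amino acid synthesis and transport.

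Most synthetase genes were at nearly the same level in knockout and wild-type cells. The log2 ratio lay within 1.2-fold for 28 of 31 measured synthetases (90.3%), against 83.8% of all measured genes. Lars2 alone was higher by 1.2-fold or more, 1 of 31 measured synthetases (3.23%) beside 5.54% of all measured genes. Farsa and Fars2 were at least 1.2-fold lower, 2 of 31 (6.45%) beside 10.6% of all measured genes. Ears2 was also past this limit but had a mean below 1 FPKM. None of the 36 reached 1.5-fold on this scale, which 1.04% of measured genes did upwards and 1.23% downwards, and none reached 2-fold (0.361% upwards and 0.379% downwards). These counts are too few to set the shares past a fold limit apart from those of all measured genes. Of the 31 measured synthetases 16 were above 0 and 15 below, where 36.9% of all measured genes were above and 63.1% below.

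**Figure D1:**
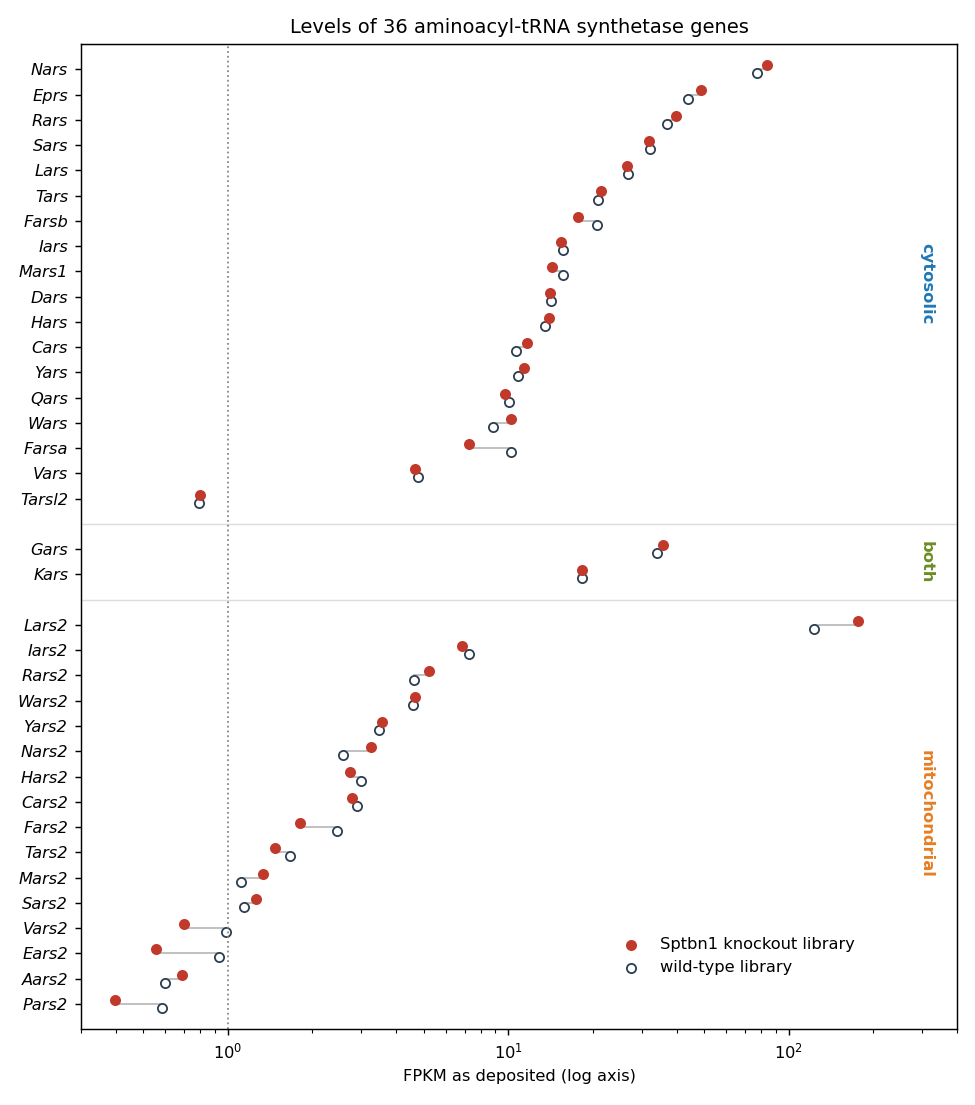
Deposited FPKM (log axis) of 36 synthetase genes, in the knockout library (filled red) and the wild-type library (open), by compartment of the enzyme; the dotted line marks 1 FPKM. Most pairs of points nearly coincide, and Lars2, at 176 FPKM in knockout cells and 124 FPKM in wild-type cells, stands above every other member.

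The compartments differed in level far more than in the difference between libraries. The median cytosolic gene was at 14.2 FPKM in knockout cells and 14.9 FPKM in wild-type cells, whereas the median mitochondrial gene was at 2.27 FPKM in knockout cells and 2.51 FPKM in wild-type cells. Mean levels of the cytosolic genes spanned 0.793 FPKM (Tarsl2) to 80.2 FPKM (Nars). Those of the mitochondrial genes spanned 0.491 FPKM (Pars2) to 150 FPKM (Lars2), and the next highest after Lars2 was Iars2 at 7.08 FPKM. The median log2 ratio of the cytosolic genes was -0.01 over 17 measured genes and 0.00 over all 18. That of the mitochondrial genes was 0.02 over 12 measured genes and -0.01 over all 16. The cytosolic median minus the mitochondrial median was thus -0.03 over measured genes and 0.02 over all, a difference whose sign depended on the filter. On a common FPKM sum this difference was 0.08 over measured genes, where the 1 FPKM added makes the shift smaller for low genes. With small RNA, ribosomal RNA and Dnaja1 left out of the sum it was -0.02, and with centring on the median gene -0.03. Of the 18 cytosolic genes 15 lay above the median gene of the table, as did 9 of the 16 mitochondrial genes. The SD of the ratios was 0.21 across the 16 mitochondrial genes and 0.15 across the 18 cytosolic ones. Without Lars2 it was 0.17 across 15 mitochondrial genes, and over measured genes alone it was then 0.15 in both compartments.

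**Figure D2:**
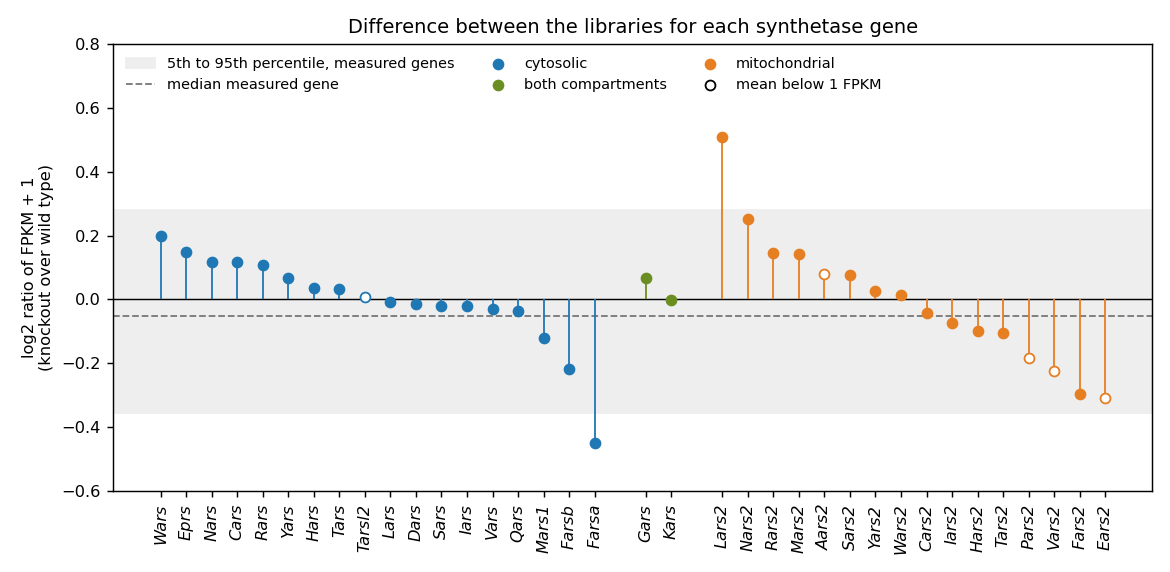
Log2 ratio of FPKM + 1, knockout over wild type, for each synthetase gene, ordered within its compartment; the grey band is the 5th to 95th percentile of measured genes and the dashed line the median measured gene at -0.05. Lars2 (0.51) and Farsa (-0.45) are the only members outside the band, which pools genes of all levels, and the 5 open points have a mean below 1 FPKM.

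The genes for phenylalanine, grouped here after their values were seen, were lower in the knockout library in both compartments. The cytosolic enzyme is built of alpha chains, which carry the active site, and beta chains. Farsa, the alpha chain gene, was at 7.23 FPKM in knockout cells and 10.2 FPKM in wild-type cells (log2 ratio -0.45). Farsb, the beta chain gene, was at 17.7 FPKM in knockout cells and 20.8 FPKM in wild-type cells (-0.22). Fars2, the single-chain mitochondrial enzyme, was at 1.81 FPKM in knockout cells and 2.45 FPKM in wild-type cells (-0.30). These were the only members for this amino acid, and each lay below the median gene. Farsa was also below the 5th percentile (-0.33) of the 2588 genes with a mean of 5 to 10 FPKM. Farsb and Fars2 were not below that of their classes, at -0.32 for 10 to 20 FPKM and -0.36 for 2 to 5 FPKM. The authors' deposited table gives Farsa a p-value of 0.0391, Farsb one of 0.216 and Fars2 one of 0.422, all made without replicate cultures. On a common FPKM sum Farsa was at -0.03, Farsb at 0.23 and Fars2 at 0.02, each still below the median gene at 0.34. In the mouse annotation Fars2 and Farsb share transcribed sequence on the opposite strand with Nrn1 and Sgpp2, and the sources used here do not say that strand was used in counting.

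Members of the multisynthetase complex were close to equal between the libraries. The complex holds the products of Eprs, Iars, Lars, Mars1, Qars, Rars, Dars and Kars. Their median log2 ratio was -0.01, with 2 of 8 above 0 and 7 of 8 above the median gene. Eprs, which joins the glutamate and proline enzymes in 1 chain, had the highest ratio of the 8, at 48.7 FPKM in knockout cells and 43.9 FPKM in wild-type cells (0.15). Rars, the arginine enzyme, was at 39.7 FPKM in knockout cells and 36.8 FPKM in wild-type cells (0.11). Mars1, the methionine enzyme, had the lowest ratio at 14.4 FPKM in knockout cells and 15.7 FPKM in wild-type cells (-0.12). The other five were nearer to equal. Lars, the leucine enzyme, stood at 26.6 FPKM in knockout cells and 26.7 FPKM in wild-type cells, and Kars, the lysine enzyme, at 18.3 FPKM in each. Iars (isoleucine) was at 15.4 FPKM in knockout cells and 15.6 FPKM in wild-type cells. The aspartate gene Dars reached 99.0% and the glutamine gene Qars 97.3% of the wild-type value. The 3 scaffold genes were each slightly lower in the knockout library. Aimp1 was at 17.7 FPKM in knockout cells and 19.0 FPKM in wild-type cells (-0.10), Eef1e1 at 7.91 FPKM in knockout cells and 8.69 FPKM in wild-type cells (-0.12), and Aimp2 at 9.73 FPKM in knockout cells and 10.9 FPKM in wild-type cells (-0.15). All 3 lay below the median gene, against 1 of the 8 enzymes.

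The cytosolic genes known as targets of the ATF4 amino acid response had a slightly higher median than the others. The gap was below the 0.1 taken here as the limit for a value that moved. Over 12 such genes, Gars included, the median log2 ratio was 0.05, with 7 above 0 and 11 above the median gene. Over the 8 remaining genes of cytosolic enzymes, Kars included, it was -0.01, with 3 above 0 and 6 above the median gene. The 8 include Tarsl2, which had a mean below 1 FPKM. Of all measured genes 36.9% were above 0. Among the targets Wars, the tryptophan enzyme, which interferon-gamma also induces, had the highest ratio at 10.3 FPKM in knockout cells and 8.80 FPKM in wild-type cells (0.20). Nars, the asparagine enzyme and the most abundant cytosolic member, was at 83.5 FPKM in knockout cells and 76.9 FPKM in wild-type cells (0.12). Cars, the cysteine enzyme, was at 11.7 FPKM in knockout cells and 10.7 FPKM in wild-type cells (0.12). None of the 12 reached 1.2-fold in either direction, beside 83.8% of all measured genes within that limit. Their ratios spanned -0.12 to 0.20.

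Short promoter stretches are shown for 4 of these genes, because they hold the letters TGATGNAA, a form of the element that ATF4 and C/EBP factors bind in amino acid response genes. RefSeq windows of 250 bases before to 50 bases after the start site were found for 27 of the 36 genes with a row of their own, on the GRCm38.p6 build. Those of Cars, Hars, Hars2, Lars, Nars, Pars2, Rars, Vars and Wars were not used here. The letters were searched on both strands and were found in 4 of 27 genes, namely Gars, Iars, Tars and Yars. They stood in 3 of 11 cytosolic genes, in 1 of the 2 genes of both compartments and in 0 of 14 mitochondrial genes, against 4.51% of the 27025 genes with windows. All 4 are on the list of amino acid response targets, 7 of which had a window. The capitals mark the match, read along the gene's own strand, where it appears in forward form only in Yars and in reverse complement in the others. None of the matches overlapped one of the 5 other motifs searched.
Gars, chr6:55037960-55037989, + strand: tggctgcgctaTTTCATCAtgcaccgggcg
Iars, chr13:49682126-49682155, + strand: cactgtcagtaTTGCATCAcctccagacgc
Tars, chr15:11399655-11399684, - strand: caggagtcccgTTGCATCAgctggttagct
Yars, chr4:129189895-129189924, + strand: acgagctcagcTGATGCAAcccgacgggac

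The match of Gars printed above lies 22 bases before the start site and that of Tars 7 bases before. Those of Iars and Yars begin at base 8 and base 4 after it. The 4 genes with the letters were near-equal in the libraries. Gars, the glycine enzyme, was at 35.5 FPKM in knockout cells and 33.9 FPKM in wild-type cells (0.07). Yars, the tyrosine enzyme, was at 11.4 FPKM in knockout cells and 10.9 FPKM in wild-type cells (0.07). Tars, the threonine enzyme, was at 21.4 FPKM in knockout cells and 20.9 FPKM in wild-type cells (0.03). Iars is described above. The joined row of Aars and Exosc6, whose promoters were not searched, was at 24.0 FPKM in knockout cells and 24.8 FPKM in wild-type cells (-0.04). The other motifs searched on both strands were the E-box CACGTG (4 of 27 genes, 8.09% of all), the CCAAT box ATTGG (12 of 27, 41.1%), the ETS motif CCGGAAG (9 of 27, 9.93%), the GC box GGGCGG (20 of 27, 38.2%) and the NRF1 motif CGCATGCG (2 of 27, 2.07%). Both NRF1 matches, in Vars2 and Wars2, were in mitochondrial genes. A match describes the letters and does not show binding.

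The remaining cytosolic genes were close to the median gene. Sars, the serine enzyme, was at 31.7 FPKM in knockout cells and 32.1 FPKM in wild-type cells (-0.02). Hars, the histidine enzyme, was at 13.9 FPKM in knockout cells and 13.6 FPKM in wild-type cells (0.04). Vars, the valine enzyme, was at 4.65 FPKM in knockout cells and 4.76 FPKM in wild-type cells (-0.03). Tarsl2, a second cytosolic threonine enzyme, had a mean below 1 FPKM, at 0.798 FPKM in knockout cells and 0.788 FPKM in wild-type cells. Among cytosolic enzymes the 9 genes of class I had a median log2 ratio of -0.01 and the 8 of class II one of 0.00, with Eprs belonging to both classes.

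**Figure D3:**
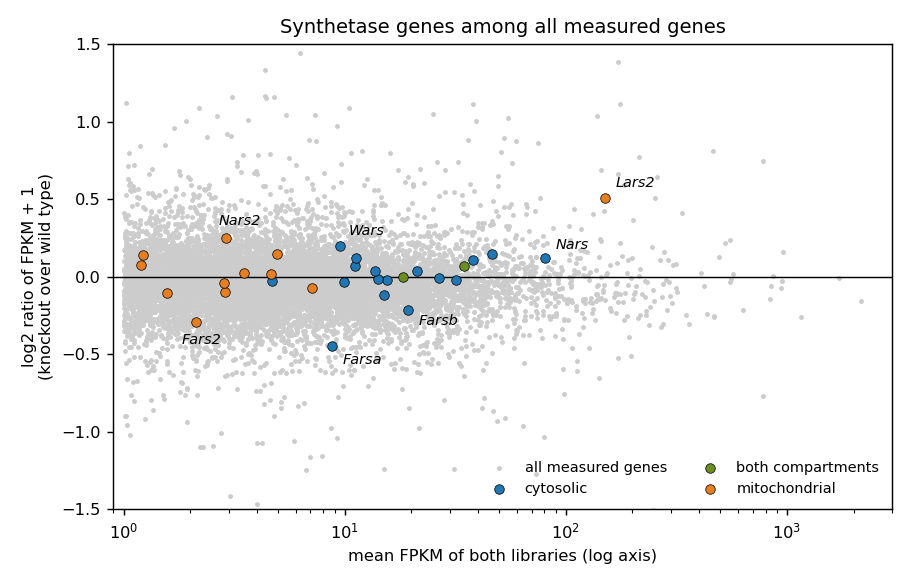
Log2 ratio of FPKM + 1, knockout over wild type, against mean FPKM (log axis) for all measured genes (grey) and the 31 measured synthetases (coloured by compartment); 48 genes lie beyond the axes, which end at a log2 ratio of 1.5 either way and 3000 FPKM. Most cytosolic enzymes sit close to 0, with Farsa (-0.45) and Farsb (-0.22) below, and Lars2 stands at the right at 0.51.

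Lars2, the mitochondrial leucine enzyme, had the highest level and the highest ratio of all 36 genes. It was listed at 176 FPKM in knockout cells and 124 FPKM in wild-type cells, a log2 ratio of 0.51. Among the 200 genes averaging at least 100 FPKM the 5th and 95th percentiles were -2.36 and 0.69, so Lars2 lay inside that range. That class has no upper limit and spreads more widely than the classes below it. For the 260 genes averaging 50 to 100 FPKM the 95th percentile was 0.45, below the Lars2 ratio. In the authors' deposited table its p-value was 0.00531, and Lars2 and Farsa were the 2 members with a p-value below 0.05. Each is 1 of 31 measured synthetases (3.23%), where 2.01% of all measured genes were higher in the knockout library with such a p-value and 3.59% lower with one. Lars2 alone made up most of the mitochondrial total: the 16 genes summed to 214 FPKM in knockout cells and 162 FPKM in wild-type cells, and the 15 others to 37.3 FPKM in knockout cells and 37.9 FPKM in wild-type cells. Limd1 and Sacm1l, which follow Lars2 on its chromosome and were chosen after their values were seen, lay below the median gene at -0.18 and -0.13. The 18S ribosomal RNA row Rn18s, also chosen after its values were seen, was higher in the knockout library, at 20121 FPKM in knockout cells and 15694 FPKM in wild-type cells (0.36). Its part in the Lars2 value was not tested. Lars2 transcripts share 19 windows of 50 bases with Gm47414 and 16 with Gm36618 on the same strand, and fewer with other genes. These fall below the limit of 100 windows used here for shared sequence, and their part in the Lars2 value was not tested either.

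Among the other 15 mitochondrial genes 7 were above 0 and 8 below. On the higher side Nars2, the asparagine enzyme, was at 3.25 FPKM in knockout cells and 2.57 FPKM in wild-type cells (0.25). Rars2 (arginine) was at 5.22 FPKM in knockout cells and 4.62 FPKM in wild-type cells (0.15). Mars2 (methionine) was at 1.34 FPKM in knockout cells and 1.12 FPKM in wild-type cells (0.14). The isoleucine, tryptophan, tyrosine, cysteine and histidine genes were nearer to equal. Iars2 was at 6.87 FPKM in knockout cells and 7.29 FPKM in wild-type cells (-0.07). Wars2 was at 4.66 FPKM in knockout cells and 4.60 FPKM in wild-type cells (0.01). Yars2 was at 3.56 FPKM in knockout cells and 3.48 FPKM in wild-type cells (0.03). Cars2 reached 96.0% and Hars2 91.3% of the wild-type value. Among the low genes Tars2 (threonine) was at 1.48 FPKM in knockout cells and 1.66 FPKM in wild-type cells, and Sars2 (serine) at 1.26 FPKM in knockout cells and 1.14 FPKM in wild-type cells.

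The 4 mitochondrial genes with a mean below 1 FPKM gave the least certain ratios. Ears2, which charges glutamate and also supplies the glutamine route of mitochondria, was at 0.557 FPKM in knockout cells and 0.930 FPKM in wild-type cells (-0.31). With a pseudocount of 0.1 FPKM in place of 1, the ratio of Ears2 was -0.65, past 1.5-fold. Vars2 (valine) was at 0.699 FPKM in knockout cells and 0.984 FPKM in wild-type cells (-0.22). Pars2 (proline) was at 0.397 FPKM in knockout cells and 0.586 FPKM in wild-type cells (-0.18). These 3 were lower in the knockout library, and Aars2 (alanine) was slightly higher, at 0.691 FPKM in knockout cells and 0.600 FPKM in wild-type cells (0.08). Of the 9 class I mitochondrial genes 5 were above 0, with a median of 0.01, and of the 7 class II genes 3 were above 0, with a median of -0.10. Transcribed sequence shared with another gene on the opposite strand touches Iars2 (Rab3gap2), Vars2 (Gm20483), Nars2 (C230038L03Rik), Cars2 (Naxd) and the neighbours Hars and Hars2, so their fragments may not all be their own. Among cytosolic genes Iars shares sequence with Gm4849 on the same strand, and Cars with Gm15580 on the opposite strand.

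Set side by side for each amino acid, the cytosolic gene had the higher FPKM in 15 of 16 pairs in each library. The median ratio of cytosolic over mitochondrial FPKM was 7.12 in knockout cells and 6.39 in wild-type cells. Leucine was the exception, with Lars at 0.151 times Lars2 in knockout cells and 0.216 times in wild-type cells. This exception rests on the listed Lars2 level, in which the parts of Rn18s and of shared sequence were not tested. The highest ratios were those of Eprs over Pars2, 123 in knockout cells and 74.8 in wild-type cells, and of Eprs over Ears2, 87.5 in knockout cells and 47.2 in wild-type cells. Both share Eprs and both rest on partners below 1 FPKM. Nars over Nars2 followed at 25.6 in knockout cells and 29.9 in wild-type cells, and Sars over Sars2 at 25.1 in knockout cells and 28.1 in wild-type cells. The lowest after leucine were Wars over Wars2, at 2.20 in knockout cells and 1.91 in wild-type cells, and Iars over Iars2, at 2.24 in knockout cells and 2.15 in wild-type cells. The ratio was higher in the knockout library for 10 pairs and lower for 6, with a median log2 difference of 0.12. Over the 13 pairs with both genes measured it was higher for 7 and lower for 6, with a median of 0.04.

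**Figure D4:**
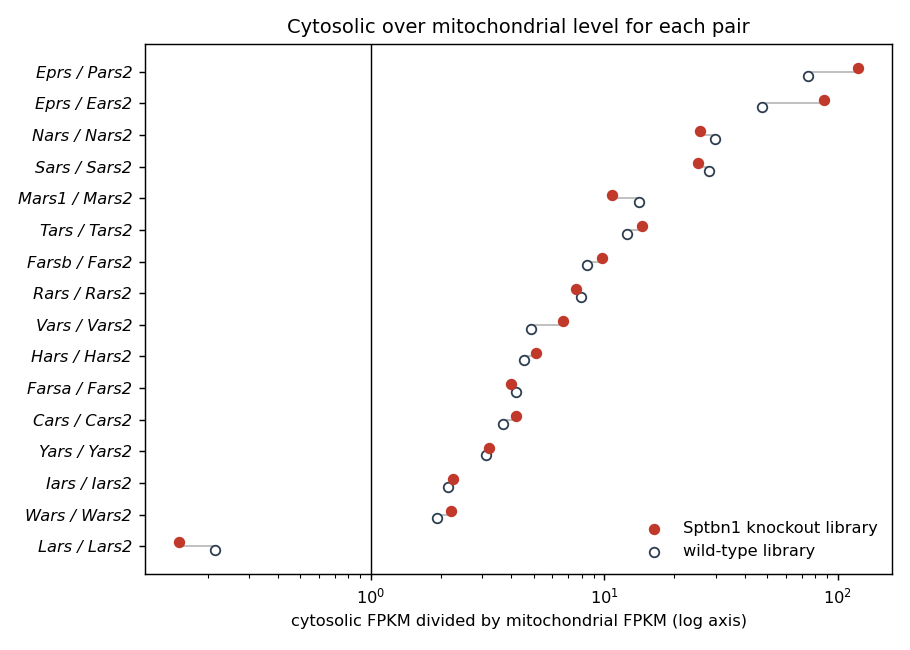
Cytosolic FPKM divided by mitochondrial FPKM (log axis) for 16 gene pairs that charge the same amino acid, in the knockout library (filled red) and the wild-type library (open); the line marks equal levels. All pairs lie to the right of the line except Lars and Lars2, at 0.151 in knockout cells and 0.216 in wild-type cells. The part of Rn18s in the Lars2 level was not tested.

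Other genes of the amino acid response had a median log2 ratio of 0.08, beside 0.05 for the 12 synthetase targets. Of 24 measured genes on that list 15 were above 0 and 18 above the median gene. At least 1.2-fold higher were 5 of 24, beside 5.54% of all measured genes, and 0 were as much lower, beside 10.6%. Ddit4, an inhibitor of mTORC1 that several stresses induce, was at 20.6 FPKM in knockout cells and 11.5 FPKM in wild-type cells (0.80). Trib3, a pseudokinase that restrains ATF4, was at 5.15 FPKM in knockout cells and 3.56 FPKM in wild-type cells (0.43). The transcription factor genes Atf5 and Ddit3 were at 0.40 and 0.33, whereas Atf4 itself was at 73.1 FPKM in knockout cells and 71.0 FPKM in wild-type cells (0.04). In the authors' deposited table, made without replicate cultures, Atf4 had a lower p-value than Lars2 while at 103% of its wild-type value. A low p-value there thus did not need a large difference. ATF4 is controlled largely at translation, which these data do not measure.

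Amino acid transporter genes had a median of -0.09 over 18 measured genes, but of 0.04 over those averaging at least 5 FPKM, so their side of the median gene depended on the filter. Of the 18, 13 were below 0 (63.1% of all measured genes), 1 was at least 1.2-fold higher (5.54% of all) and 3 at least 1.2-fold lower (10.6% of all). Slc7a3, a carrier of cationic amino acids, was at 1.54 FPKM in knockout cells and 2.35 FPKM in wild-type cells (-0.40). Slc1a4, a carrier of small neutral amino acids, was at 9.33 FPKM in knockout cells and 7.21 FPKM in wild-type cells (0.33). Slc7a7 and Slc43a1 were at -0.32 and -0.28. For mitochondrial translation factors and tRNA modification enzymes 9 of 18 measured genes were above 0 and 11 above the median gene, with a median of 0.01. Pus1, a pseudouridine synthase of tRNA, was at -0.39, the initiation factor gene Mtif3 at 0.31, the recycling factor gene Gfm2 at -0.23 and Lrpprc, which stabilises mitochondrial messenger RNA, at -0.19. Cytosolic elongation and release factors and related genes had 5 of 12 above 0 and 7 above the median gene, with a median of -0.04. Among them Gtpbp1 was at -0.17, Eif5a at 0.14, Gspt1 at -0.14 and Dph5 at 0.14. The tRNA editing and quality control genes had 1 of 9 above 0, 6 above the median gene and a median of -0.03, with Zfp598 at -0.21, Hbs1l at -0.20, Gcn1l1 at -0.15 and Eif2ak4, the kinase that senses uncharged tRNA, at 0.07.

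**Figure D5:**
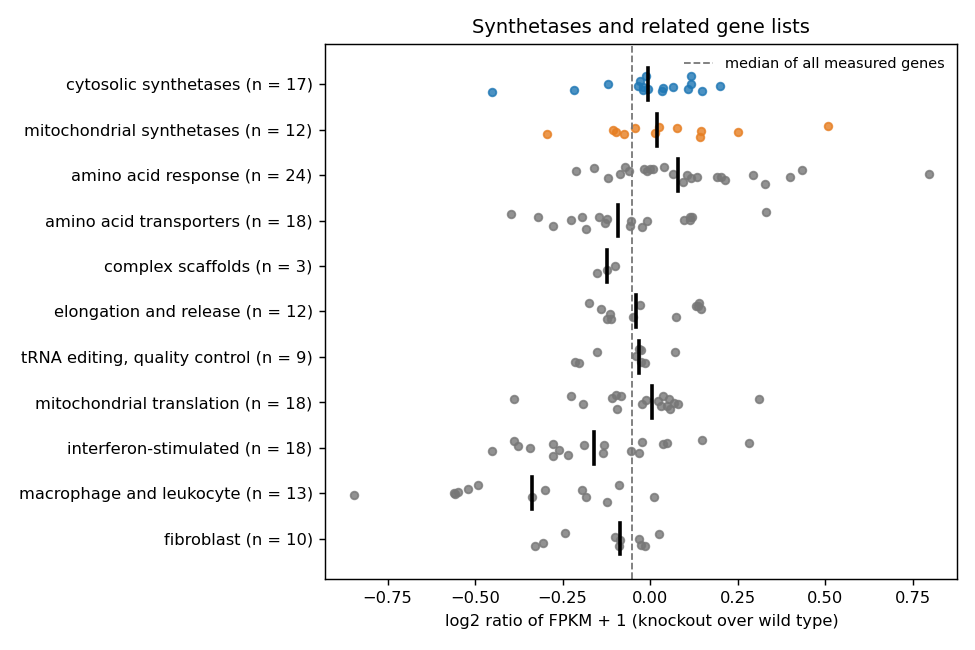
Log2 ratio of FPKM + 1, knockout over wild type, of each measured gene (points, spread vertically at random) in the synthetase groups and related lists, with each median as a black bar and the median of all measured genes (-0.05) as a dashed line. The cytosolic (-0.01) and mitochondrial (0.02) synthetase medians lie between that of the amino acid response genes (0.08) and that of the macrophage and leukocyte markers (-0.34).

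Markers of other cells also differed between the libraries. Macrophage and leukocyte markers were lower in the knockout library for 12 of 13 genes with a row, summing to 249 FPKM in knockout cells and 333 FPKM in wild-type cells, with a median log2 ratio of -0.34 and none at 0. C1qb was at -0.85, C1qc at -0.56, Fcer1g at -0.56 and Cd68 at -0.55. Interferon-stimulated genes had 14 of 18 below 0 and a median of -0.16. Beside both lists, 63.1% of all measured genes were below 0, with a median of -0.05. Usp18 was at -0.45, Irf7 at -0.39, Oasl2 at -0.38 and Gbp3 at -0.34. Wars, which interferon also induces, lay on the other side at 0.20. Epithelial markers summed to 1.71 FPKM in knockout cells and 1.98 FPKM in wild-type cells, with Epcam listed at 0 in the knockout library. Endothelial markers summed to 10.1 FPKM in knockout cells and 11.2 FPKM in wild-type cells, most of it Flt1. In bulk libraries fewer cells of a type and less RNA per cell cannot be told apart, and the part of these markers in the synthetase values was not tested.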

How the data were processed

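RNA sequencing was compared between 1 Sptbn1 knockout and 1 wild-type library. Per the series' design text and the submitters' processing notes, reads were checked with FastQC and Trimmomatic, aligned with TopHat2 version 2.0.10 to NCBI mouse build 37.2 and quantified with Cufflinks, and Cuffdiff2 made the comparison. The authors deposited FPKM per gene for each library and a p-value per gene, per the file headers. FPKM divide fragments among near-identical genes. Their log2 fold column was not used. Here log2((knockout FPKM + 1)/(wild-type FPKM + 1)) was computed with Python 3.11.15 (numpy 2.4.6, pandas 2.3.3), with no test, and checked on simulated data. Repeated names keep the row with the highest mean. All 37 listed names matched the RefSeq gene table of GRCm38.p6, another build, whose symbols are printed. Shared sequence means at least 100 windows of 50 bases shared by GENCODE vM21 transcripts. The members and lists were chosen with earlier results of these data known. Named genes were all members, Sptbn1, Atf4 and up to 4 measured genes of each list with the largest differences.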

Additional observations from a re-analysis of the deposited data

How the results depend on the processing

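No paired analysis was possible because each genotype had 1 library. Without replicates, a change of 0.1 on the log2 scale was taken as the limit for a value that moved. Centring on the median gene, a common upper quartile and a common sum without small RNA, ribosomal RNA and Dnaja1 shift genes nearly alike and moved none of the 36 ratios past it. Filters and summed names cannot change a member's own ratio. A pseudocount of 0.1 FPKM moved 4, left 29 of 36 within 1.2-fold, against 32, and put Ears2 past 1.5-fold. On a common FPKM sum the cytosolic median was 0.44, the mitochondrial 0.36 and their difference 0.081. There 26 synthetases were at least 1.2-fold higher and 0 lower, Fars2 turned to 0.022, and the macrophage median to 0.10. The median of all measured genes rose with them, to 0.34. The shift was not alike for all genes, since with 1 FPKM added it is smaller for low genes. The count at least 1.2-fold higher was 2 with a pseudocount of 0.1, with the sum without small RNA, with centring and with the upper quartile, and 0 without Lars2. The count at least 1.2-fold lower was 1 with centring, with the upper quartile and at a mean of 5 FPKM or more. At that mean only Lars2 and Iars2 remained of the mitochondrial genes, with a median of 0.22 and a difference of -0.20, and the transporter median was 0.04. With no filter on low values 2 of the 6 pathway lists had a median above that of all genes, against 4. Leaving out Lars2 and adding Aars with Exosc6 were chosen after seeing the data. The unknown fragment counts limit genes below 1 FPKM most.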
